A study of Homo sapiens with 4 samples.

Results

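Interferon and double-stranded RNA response genes were followed in 293T cells that received a microRNA mimic or a control RNA. The set holds 45 named genes among the 58243 genes listed in each library, chosen by symbol for their known roles, with no threshold on a measured value. It covers 8 groups: RNA sensors and adaptors, interferon and its signalling chain, the IFIT and OAS families, other antiviral effectors, the ISG15 system, other interferon-stimulated genes, and antigen processing. The question was whether the levels of these genes were higher after a mimic than after the control RNA.

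293T cells derive from human embryonic kidney and carry the SV40 large T antigen. The 4 libraries came from cells given a negative control RNA, the miR-1 mimic, the mimic of miR-122, and that of miR-124, 1 library per condition. All 4 groups shared the cell line, the transfection, and the harvest at 48 h given by the labels, and the methods of the study state a shorter time. The comparison is therefore between transfected RNAs. Untransfected cells were not analysed here, and the sequence of the control RNA and the chemistry of the mimics are not given in the sources used here.

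Cells detect long or foreign double-stranded RNA through RIG-I-like receptors in the cytosol, Toll-like receptor 3 in endosomes, and the kinase PKR. The RIG-I-like receptors act through MAVS and the kinases TBK1 and IKKε on IRF3 and IRF7, which switch on the interferon β gene. Secreted interferon binds its receptor, and the kinases JAK1 and TYK2 then activate STAT factors that, with IRF9, bind a response element in the promoters of interferon-stimulated genes.

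The letters that IRF and STAT factors bind were searched in the promoters first, since they mark the members through which such a response would be read. RefSeq promoters (GRCh38.p14, 250 bases before to 50 after the start) were matched for 35 of the 45 genes. DHX58, IFIT2, IFITM2, IFNAR2, IRF3, IRF7, MX2, OAS2, OASL, and USP18 had no entry in the promoter table. The interferon-stimulated response element, searched on both strands as GAAA, any 2 letters, and GAAA, was found in 18 of the 35 (51.4%) and in 996 of 27305 promoters (3.65%). The gamma-activated sequence TTCNNNGAA, which reads the same on both strands, was found in 9 of the 35 (25.7%) and in 7.88% of all promoters. The NF-kB letters, GGGA, any 4 letters, and CC, were found in 11 of the 35 (31.4%) and in 25.1% of all promoters. Matches of different motifs may overlap, and a match is a description of letters and not of binding. The 30-base windows below show the match nearest the start, in capitals and in the direction of the gene, for 7 members whose values are described later. They lie at chr1:1013380-1013409 (ISG15, plus strand), chr21:41420559-41420588 (MX1, plus), chr1:78620365-78620394 (IFI44L, plus), chr10:89392510-89392539 (IFIT1, plus), chr10:89414554-89414583 (IFIT5, plus), chr12:112938452-112938481 (OAS3, plus), and chr2:37156967-37156996 (EIF2AK2, minus).
ISG15: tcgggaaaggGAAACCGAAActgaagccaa
MX1: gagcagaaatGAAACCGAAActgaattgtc
IFI44L: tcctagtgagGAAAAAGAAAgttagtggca
IFIT1: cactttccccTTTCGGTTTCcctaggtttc
IFIT5: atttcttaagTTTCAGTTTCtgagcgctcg
OAS3: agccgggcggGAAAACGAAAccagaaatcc
EIF2AK2: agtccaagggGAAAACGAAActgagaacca
ISG15 and MX1 share the same 10 letters of the match, and the IFIT1 match is these letters read on the other strand. OAS3 and EIF2AK2 also share their 10 letters with each other. In MX1 the match lies after the start, at bases 11 to 20, and in EIF2AK2 it spans the start, from base -6 to base 3. The IFI44L promoter holds the same 30 letters a second time, at chr1:78620274-78620303.

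Values were FPKM, fragments scaled to the length of the gene and the depth of the library, and the reads behind them were recovered from the steps between low values. The libraries held 5887055 to 9452232 reads, with the miR-1 library the deepest. Of the 10 marker genes listed for 293T cells, 9 had more than 3 reads in every library and INA was at 0, with 2606.9 to 2933.9 RPM in all (RPM, reads scaled to the depth of the library without the length). The 10 blood cell markers summed to 6.88 to 12.2 RPM, with CD3E at 0 throughout. The 8 fibroblast and endothelial markers summed to 87.4 to 99.9 RPM, with COL1A1, COL3A1, LUM, and VWF above 3 reads in every library.

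A ratio was taken as the FPKM in the mimic library over that in the control RNA library, with an exact Clopper-Pearson 95% interval from the reads. The interval covers counting error only. With 1 library per condition it compares libraries and not conditions, no p-value was calculated, and a difference between cultures cannot be told apart from a difference between RNAs. A gene was tested when both libraries together held at least 20 reads, and it was called higher or lower when its ratio reached 1.5-fold. In bulk RNA, fewer cells with a transcript and less of it per cell cannot be told apart. All 3 comparisons share the control RNA library, so that a high or low value there enters each of them.

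Levels were set out as exon RPKM, the recovered reads scaled to the length of annotated exon and the depth of the library. That length joins the exons of all annotated transcripts, 17984 bases for MX1 and 867 for ISG15, so that comparison between genes is rough. On this scale the levels of the 45 genes spanned a wide range. BST2, which tethers budding virus at the membrane, was the highest, at 51.0 in the control, 61.3 in the miR-1, 62.2 in the miR-122, and 60.1 in the miR-124 library. IFI6 followed at 28.7 to 37.2, IFITM3 at 19.1 to 24.0, and IRF3 at 18.4 to 22.5. The sensors RIGI (0.263 to 0.634) and IFIH1 (1.04 to 1.33) were low, as was MX1 (0.0923 to 0.206). OAS1, OAS2, MX2, and IRF9 stayed at or below 0.0700 in all 4 libraries. The control RNA library alone held at least 20 reads for 32 of the 45 genes.

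**Figure D1:**
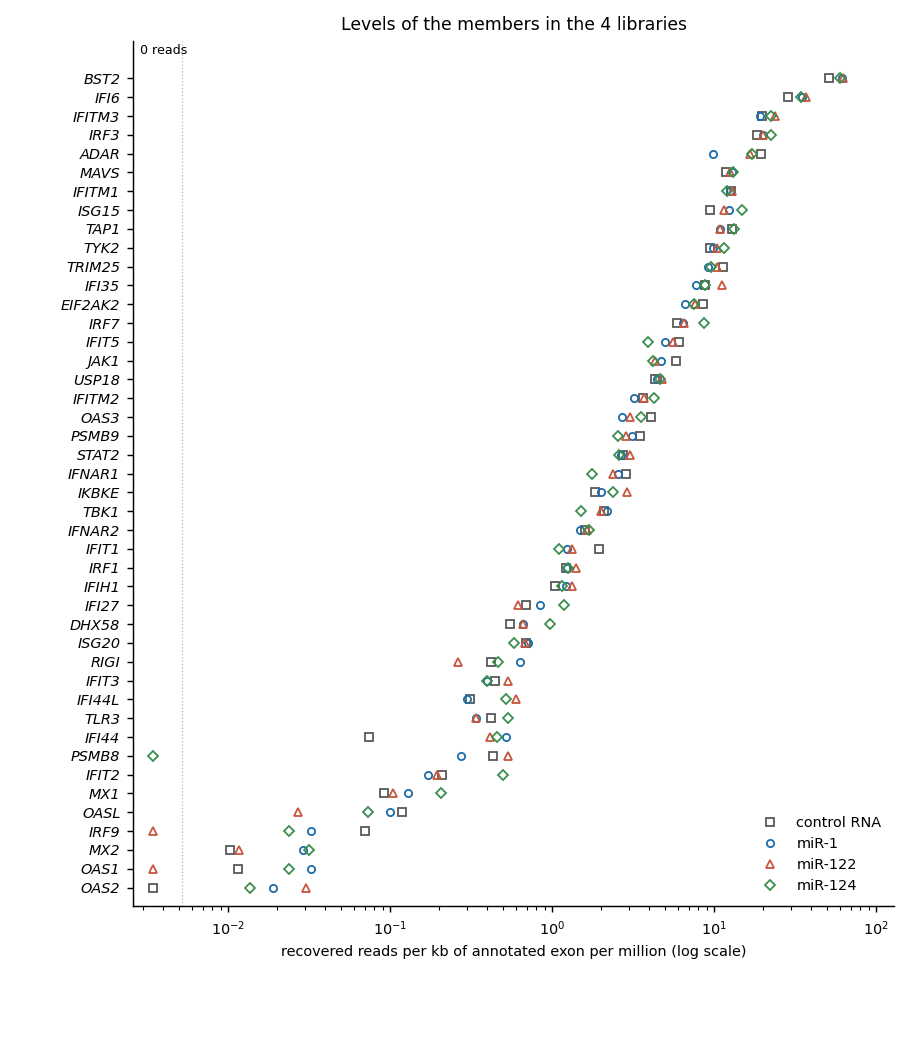
Levels of the 44 members above 0 in any library, ordered by their mean, as exon RPKM on a log axis; each symbol is 1 library, and symbols left of the dotted line mark 0 reads. BST2 lies above 50 in every library, ADAR stands apart in the miR-1 library at 9.92 against 16.8 to 19.5 in the others, and OAS1, OAS2, MX2, and IRF9 lie at the bottom.

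Summed over the 45 genes, RPM was 1426.1 in the control RNA, 1241.8 in the miR-1, 1385.2 in the miR-122, and 1389.2 in the miR-124 library. The sum was thus highest without a mimic, with much of the difference in ADAR. ADAR alone went from 239.1 RPM in the control to 121.5 in the miR-1, 205.5 in the miR-122, and 209.7 in the miR-124 library. The other 44 genes summed to 1187.0 in the control, 1120.4 in the miR-1, 1179.7 in the miR-122, and 1179.5 in the miR-124 library. Without ADAR, the miR-122 and miR-124 libraries thus lay close to the control.

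In the miR-1 library, 36 members were tested, 0 were called higher, and 2 were called lower (ADAR and IFIT1), where 4.22% of 17150 genes tested were called higher and 9.03% lower. With an interval that leaves out 1 besides, the counts were 0 higher, against 1.96% of all genes, and 2 lower, against 6.05%. At any fold, the interval lay above 1 for 2 members (12.7% of all genes) and below 1 for 7 (20.6%). The median log2 ratio was -0.03 over the members and -0.06 over all genes tested. RIGI lay just short of the fold on the high side, at a ratio of 1.498, and OAS3 just short of it on the low side, at 0.668.

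In the miR-122 library, 37 members were tested, 2 were called higher (IKBKE and IFI44L) and 1 lower (RIGI), where 4.40% of 16576 genes were called higher and 5.83% lower. Both higher members had an interval above 1 (2.06% of all genes), and the lower member had an interval that included 1 (3.15% of all genes were lower with an interval below 1). At any fold, 5 members had an interval above 1 (11.2% of all genes) and 5 had one below 1 (13.9%). The median log2 ratio was 0.08 over the members and -0.02 over all genes tested.

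In the miR-124 library, 37 members were tested, 6 were called higher (DHX58, IFIT2, MX1, ISG15, IFI27, and IFI44L) and 3 lower (IFNAR1, IFIT1, and IFIT5), where 4.99% of 16688 genes were called higher and 6.39% lower. Only MX1 and ISG15 among the 6 had an interval above 1 (2.56% of all genes), and all 3 lower members had one below 1 (3.86%). IFIT2 reached 20 reads only through the miR-124 library in which it was high, so that its call follows from the filter, and without it 5 of 36 members were higher. At any fold, 7 members had an interval above 1 (13.6% of all genes) and 9 had one below 1 (18.2%). The median log2 ratio was 0.09 over the members and -0.05 over all genes tested.

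Calls at 1.5-fold depended on depth, since genes with few reads cross the fold more often. Among genes with 20 to 99 reads in both libraries together, 13.9% were called higher and 21.3% lower with miR-1, and 0 of the 10 members in this range were called either way. With miR-122 the shares were 14.2% and 16.5%, and 1 of 12 members was higher and 1 lower. For miR-124 they were 14.4% and 16.6%, and 5 of 12 members were higher (4 of 11 without IFIT2) and 1 lower. With at least 100 reads, 1 of 25 members was called higher with miR-124 (ISG15), where 1.82% of all such genes were. All but ISG15 of the 6 members higher with miR-124 thus came from the shallow range, in which the background is also higher.

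**Figure D2:**
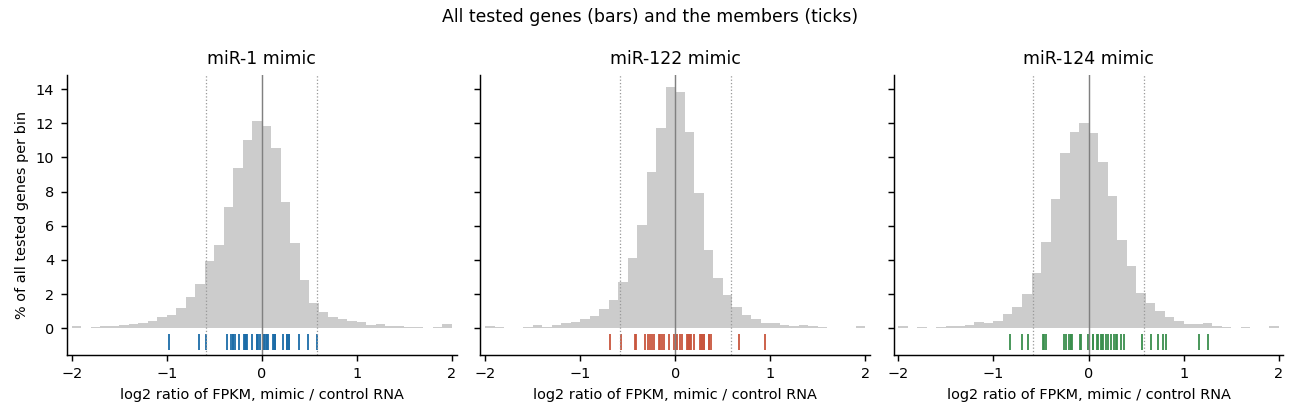
Distribution of the log2 ratio of FPKM, mimic over control RNA, for all tested genes (grey bars, percent of genes per bin) and for the tested members (coloured ticks), 1 panel per mimic, with dotted lines at 1.5-fold and values beyond the axis placed in the end bins. Most of the members' ticks lie between the dotted lines, with 2 past the lower line for miR-1, 3 past either line for miR-122, and 9 past either line for miR-124.

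The intervals also show how large an increase between the libraries counting error could have hidden. They cover counting error only and set no limit on an increase caused by a mimic, since a difference between cultures could mask it. The upper end of the interval was below a 2-fold increase for 32 of 36 tested members in the miR-1 library, 30 of 37 in that of miR-122, and 29 of 37 in that of miR-124. The interval reached 2-fold or more for RIGI, DHX58, MX1, and IFI27 with miR-1. The same held for IFIH1, DHX58, IKBKE, IFIT3, MX1, IFI44L, and PSMB8 with miR-122, and for DHX58, TLR3, IFIT2, IFIT3, MX1, ISG15, IFI27, and IFI44L with miR-124. IFNB1, IRF9, OAS1, OAS2, OASL, MX2, and IFI44 had too few reads for a test in any comparison.

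Among the sensors, RIGI (RIG-I, a receptor for RNA with a 5′ triphosphate) had an FPKM of 0.0620 in the control, 0.0929 in the miR-1, 0.0385 in the miR-122, and 0.0679 in the miR-124 library, from 29, 62, 16, and 31 reads. It was highest with miR-1 and lowest with miR-122. Its ratios were 1.5 (0.949 to 2.42), 0.621 (0.315 to 1.18), and 1.10 (0.639 to 1.88), and each interval included 1. IFIH1 (MDA5, a receptor for long double-stranded RNA) had an FPKM of 0.105 in the control and 0.123, 0.135, and 0.117 with miR-1, miR-122, and miR-124. The control library was the lowest, and the ratios of 1.17 (0.760 to 1.82), 1.28 (0.799 to 2.06), and 1.11 (0.687 to 1.8) did not exceed counting error. DHX58 (LGP2, the RIG-I-like receptor without signalling domains) had 14, 24, 15, and 24 reads and a ratio of 1.76 (0.873 to 3.67) with miR-124. TLR3, the endosomal receptor, had 21, 24, 15, and 26 reads, and its 3 intervals included 1.

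MAVS, the adaptor on mitochondria, was better covered, with 865 to 1433 reads per library and ratios of 1.09, 1.05, and 1.10. The kinase TBK1 had a ratio of 0.718 (0.576 to 0.894) with miR-124, from 204 reads in the control and 143 in the mimic library, and its ratios with miR-1 and miR-122 were 1.04 and 0.954. IKBKE, the kinase that acts beside TBK1, had an FPKM of 0.263 in the control and 0.288, 0.418, and 0.340 in the miR-1, miR-122, and miR-124 libraries. The miR-122 library was the highest, at a ratio of 1.59 (1.07 to 2.37) from 46 and 65 reads.

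EIF2AK2 encodes PKR, which halts translation when it binds double-stranded RNA. Its FPKM was 1.63 in the control and 1.26, 1.45, and 1.43 with miR-1, miR-122, and miR-124, from 623, 691, 494, and 535 reads. The control was the highest of the 4, and the miR-1 library the lowest, with ratios of 0.777 (0.697 to 0.868), 0.892 (0.791 to 1.01), and 0.880 (0.782 to 0.989).

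ADAR (ENSG00000160710, chr1:154581695-154628013, minus strand) encodes the enzyme that edits adenosines in double-stranded RNA and keeps the cell's own RNA from being sensed. Its FPKM was 5.21 in the control and 2.64, 4.47, and 4.57 in the miR-1, miR-122, and miR-124 libraries, from 1584, 1148, 1210, and 1356 reads. The miR-1 library was far below the other 3, whose values lay close together with the control on top. The ratios were 0.508 (0.470 to 0.548) with miR-1, 0.860 (0.797 to 0.927) with the miR-122 mimic, and 0.877 (0.815 to 0.944) with that of miR-124. The miR-1 value was the lowest ratio among the tested members in that comparison, and 2.44% of all genes tested were as low or lower. Against the mean of the miR-122 and miR-124 libraries its log2 ratio was -0.77, beside -0.98 against the control.

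**Figure D3:**
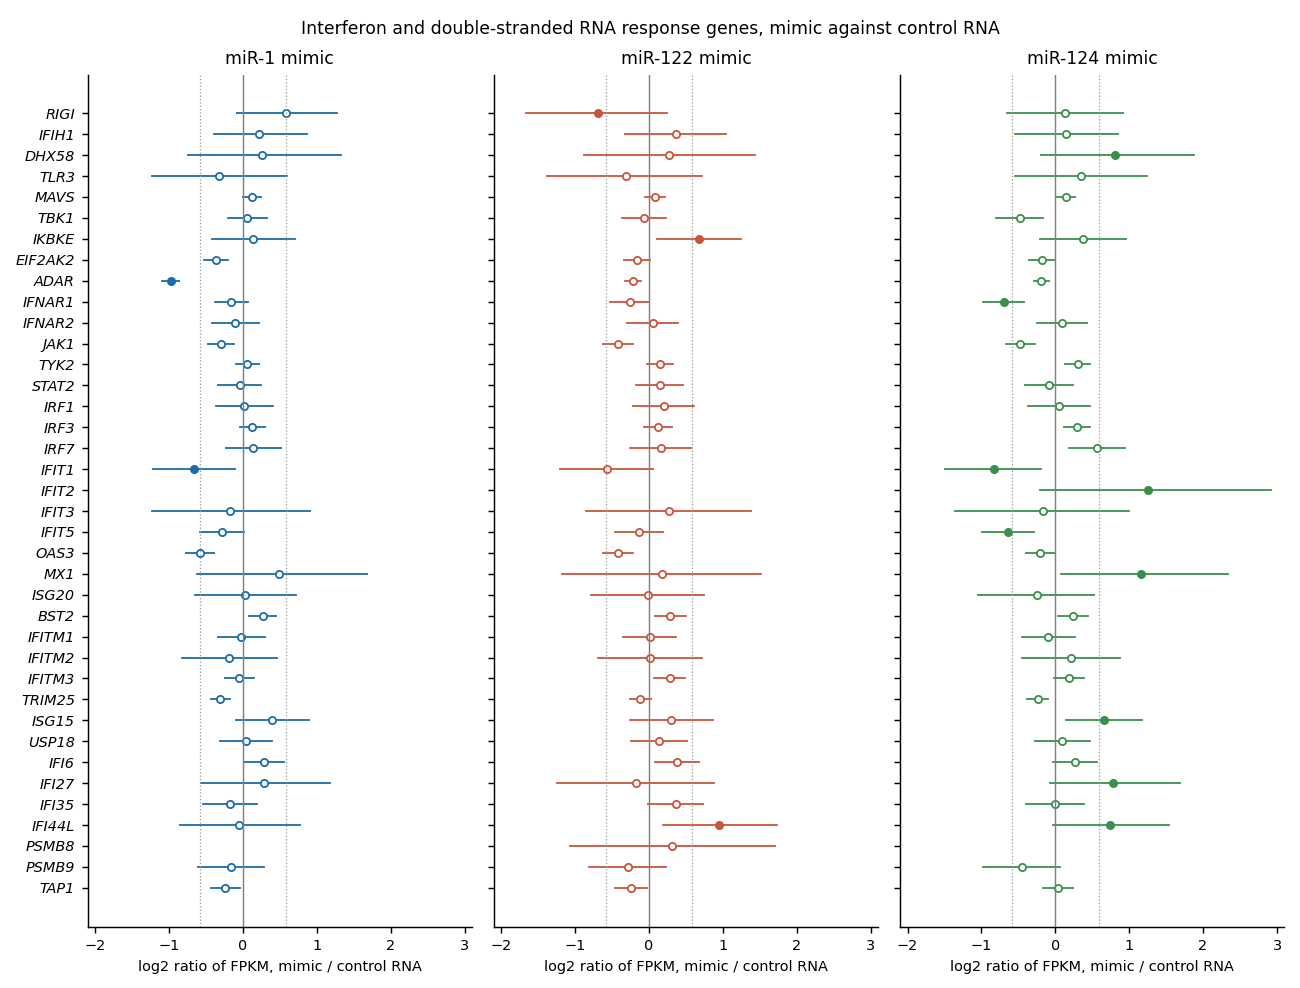
Log2 ratio of FPKM, mimic over control RNA, of each tested member with its exact 95% counting interval, 1 panel per mimic; filled points are past 1.5-fold (dotted lines) and open points are not, and a member without a point had too few reads. ADAR with miR-1 has the narrowest interval of the filled points, at -0.98, while IFIT2 with miR-124, at 1.26, has the widest.

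The interferon β gene IFNB1 (ENSG00000171855, chr9:21077104-21077942, minus strand) had 0 reads in all 4 libraries. A count of 0 allows up to 3 reads, which for this gene is an FPKM of 0.540 in the control, 0.379 in the miR-1, 0.608 in the miR-122, and 0.554 in the miR-124 library. Of 11 further genes for α, ε, κ, γ, λ, and ω interferons, none had more than 2 reads in any library, and none could be tested.

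The receptor and its kinases were expressed. IFNAR1, the receptor chain that TYK2 binds, had an FPKM of 1.26 in the control and 1.13, 1.05, and 0.778 with miR-1, miR-122, and miR-124, from 296, 379, 219, and 178 reads. The miR-124 library was the lowest, and the ratios were 0.897 (0.769 to 1.05), 0.833 (0.696 to 0.995), and 0.616 (0.509 to 0.745). IFNAR2, the chain that JAK1 binds, had ratios of 0.931, 1.03, and 1.07 with intervals that included 1. JAK1 had an FPKM of 0.573 in the control and 0.466, 0.430, and 0.413 with the mimics, and its ratios were 0.813 (0.721 to 0.917), 0.749 (0.651 to 0.862), and 0.721 (0.628 to 0.827). The control was thus the highest library for JAK1, beyond counting error in each comparison and short of 1.5-fold. TYK2 had ratios of 1.04, 1.11, and 1.23, and only the last, with miR-124, had an interval above 1 (1.10 to 1.39).

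Of the transcription factors, IRF3, the factor that TBK1 activates, had an FPKM of 11.1 in the control and 12.1, 12.0, and 13.5 with miR-1, miR-122, and miR-124, from 462, 721, 446, and 552 reads. The control was the lowest, and the ratios were 1.09 (0.972 to 1.23), 1.09 (0.952 to 1.24), and 1.22 (1.08 to 1.39). IRF7, which interferon itself induces, had an FPKM of 4.47, 4.91, 4.98, and 6.6, and its ratio with miR-124 was 1.48 (1.14 to 1.92), just short of the fold. STAT2 had an FPKM of 1.37, 1.33, 1.52, and 1.30 from 169, 234, 166, and 156 reads. Its libraries were alike within counting error, at ratios of 0.970 (0.793 to 1.19), 1.11 (0.887 to 1.38), and 0.946 (0.756 to 1.18). IRF9, a partner of STAT2, had 3, 2, 0, and 1 reads, with an FPKM of 0.0822, 0.0384, 0, and 0.0281. IRF1 had ratios of 1.01, 1.15, and 1.03 with intervals that included 1. Overlapping or copied genes leave the reads of some of these members uncertain: 27.7% of the 50-base words of IFNAR2 occur in other genes (chiefly the readthrough gene IFNAR2-IL10RB), 20.3% of those of IRF9, 20.1% of those of IRF1, and 15.1% of those of IRF3.

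Some IFIT proteins, IFIT1 among them, bind the 5′ ends of foreign RNA and block its translation. IFIT1 (ENSG00000185745, chr10:89392546-89406487, plus strand) had an FPKM of 0.650 in the control and 0.410, 0.439, and 0.366 with miR-1, miR-122, and miR-124, from 60, 54, 36, and 33 reads. The control was the highest and the 3 mimic libraries lay close together. The ratios were 0.631 (0.428 to 0.927), 0.675 (0.434 to 1.04), and 0.564 (0.357 to 0.876). Against the mean of the other 2 mimics, the log2 ratio of IFIT1 in the miR-1 library was 0.03, where it was -0.66 against the control. IFIT2 had 6, 7, 5, and 14 reads and an FPKM of 0.0354, 0.0289, 0.0332, and 0.0846, highest with miR-124, and its ratio of 2.39 there had an interval of 0.863 to 7.59. IFIT3 had an FPKM of 0.173, 0.154, 0.208, and 0.154 from 15, 19, 16, and 13 reads, and its libraries were alike within counting error, at ratios of 0.888 (0.427 to 1.88), 1.2 (0.556 to 2.61), and 0.888 (0.389 to 2.0). IFIT5 had an FPKM of 4.17, 3.41, 3.79, and 2.68 from 177, 207, 143, and 111 reads. The control was again the highest, and the ratios were 0.820 (0.667 to 1.01), 0.909 (0.724 to 1.14), and 0.643 (0.502 to 0.819). Within the family, IFIT1 and IFIT5 were lower and IFIT2 higher in the miR-124 library, the last on few reads.

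The OAS enzymes make 2′,5′-linked oligoadenylate, a second messenger of the antiviral response. OAS3, the member with the most reads, had an FPKM of 2.11 in the control and 1.41, 1.57, and 1.83 with miR-1, miR-122, and miR-124, from 487, 464, 323, and 412 reads. The control was the highest and the miR-1 library the lowest, with ratios of 0.668 (0.587 to 0.760), 0.746 (0.646 to 0.861), and 0.867 (0.758 to 0.990). OAS1 had 1, 4, 0, and 2 reads and an FPKM of 0.00571, 0.0160, 0, and 0.0117. OAS2 had 0, 2, 2, and 1 reads. OASL, a relative without the enzyme activity, had 5, 6, 1, and 3.

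**Figure D4:**
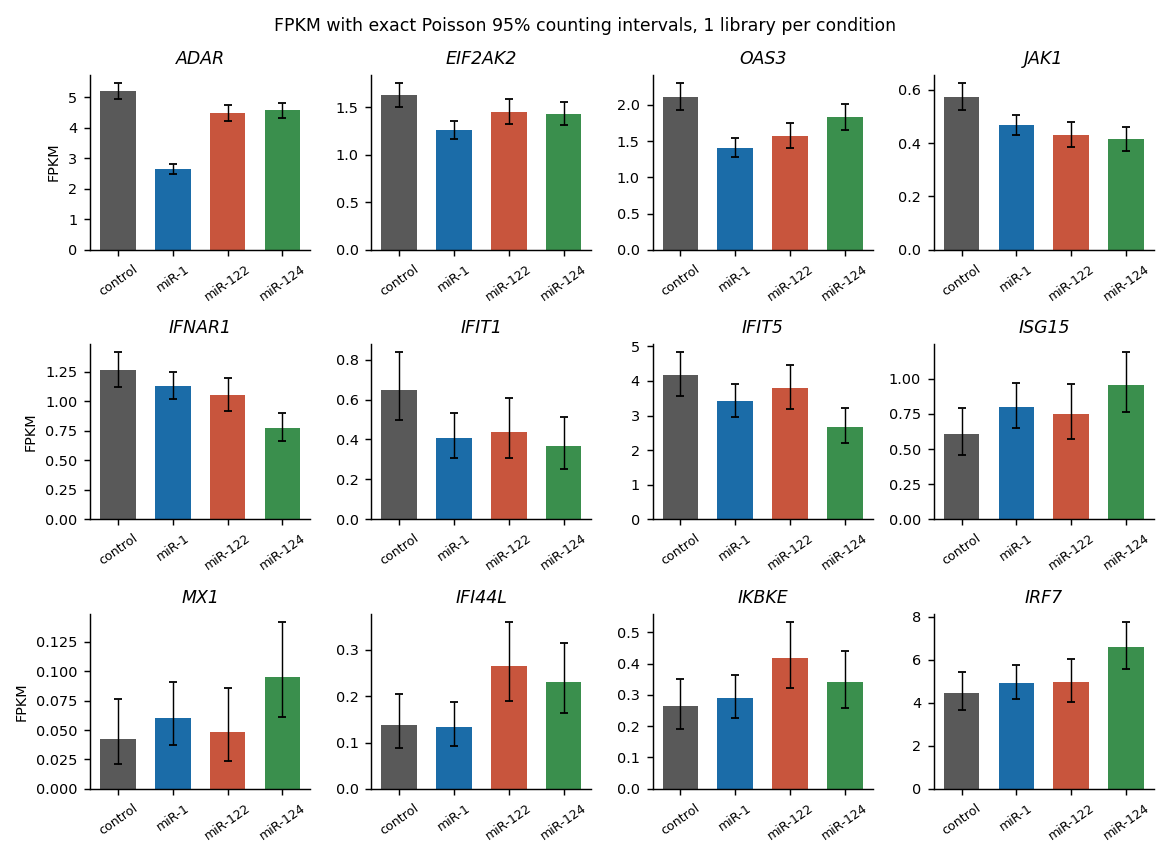
FPKM of 12 members in the control RNA, miR-1, miR-122, and miR-124 libraries, with bars from 0 and exact 95% Poisson counting intervals, 1 library per condition. ADAR is lowest with miR-1 (2.64 against 4.47 to 5.21), IFNAR1 and IFIT5 are lowest with miR-124, EIF2AK2, OAS3, JAK1, and IFIT1 are highest in the control, and ISG15, MX1, and IRF7 are highest with miR-124.

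Among the other effectors, MX1, a GTPase that traps viral nucleocapsids, had an FPKM of 0.0427 in the control and 0.0598, 0.0480, and 0.0954 with miR-1, miR-122, and miR-124, from 11, 22, 11, and 24 reads. The miR-124 library was the highest, and the ratios were 1.40 (0.651 to 3.2), 1.13 (0.442 to 2.86), and 2.24 (1.05 to 5.06). MX2 had 1, 4, 1, and 3 reads. BST2 had 372, 638, 403, and 428 reads and was lowest in the control, with ratios of 1.2 (1.06 to 1.37), 1.22 (1.06 to 1.41), and 1.18 (1.02 to 1.36). The RNA exonuclease ISG20 had ratios of 1.02, 0.989, and 0.838, all within counting error. IFITM1, IFITM2, and IFITM3 block the entry of enveloped viruses, and their ratios lay between 0.881 and 1.21, with an interval above 1 only for IFITM3 with miR-122 (1.05 to 1.40). IFITM1, IFITM2, and IFITM3 share 20.8% to 30.8% of their 50-base words with other genes, so that reads could be split among them. TRIM25, the ubiquitin ligase that acts on RIG-I, had 761 to 1073 reads per library and ratios of 0.808 (0.739 to 0.883), 0.920 (0.835 to 1.01), and 0.848 (0.770 to 0.934).

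ISG15 (ENSG00000187608, chr1:1001138-1014540, plus strand) encodes a ubiquitin-like protein that is attached to other proteins after interferon. Its FPKM was 0.608 in the control and 0.797, 0.748, and 0.958 with miR-1, miR-122, and miR-124, from 54, 101, 59, and 83 reads. The control was the lowest and the miR-124 library the highest, with ratios of 1.31 (0.933 to 1.86), 1.23 (0.835 to 1.81), and 1.57 (1.10 to 2.26). Against the mean of the other 2 mimics, the log2 ratio of ISG15 in the miR-124 library was 0.31, below the fold, where it was 0.66 against the control. USP18, which removes ISG15, had ratios of 1.03, 1.10, and 1.07, all within counting error, and 11.8% of its words occur in other genes, chiefly USP41.

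Of the remaining interferon-stimulated genes, IFI6 had ratios of 1.22 (1.01 to 1.47), 1.30 (1.05 to 1.59), and 1.2 (0.980 to 1.48). IFI27 had 19, 33, 15, and 32 reads and a ratio of 1.73 (0.949 to 3.22) with miR-124. IFI35 had ratios of 0.885, 1.28, and 0.998, and IFI44 had 1, 10, 5, and 6 reads. IFI44 was thus lowest in the control, on counts too small for a test. IFI44L had an FPKM of 0.138 in the control and 0.133, 0.266, and 0.230 with miR-1, miR-122, and miR-124, from 24, 33, 41, and 39 reads. The control and miR-1 libraries were alike and the other 2 higher, at ratios of 0.964 (0.553 to 1.70), 1.92 (1.13 to 3.33), and 1.66 (0.976 to 2.89).

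None of the antigen processing genes was called higher. TAP1, a subunit of the peptide transporter, had ratios of 0.848 (0.742 to 0.970), 0.842 (0.723 to 0.979), and 1.03 (0.895 to 1.18). PSMB9, an immunoproteasome subunit, had ratios of 0.892, 0.818, and 0.732 with intervals that included 1. PSMB8, the other such subunit, had 10, 9, 11, and 0 reads, with a ratio of 1.24 (0.477 to 3.25) with miR-122, and too few reads for a test with miR-1 or miR-124. TAP1 and PSMB8 share 12.8% and 14.9% of their 50-base words with other genes, chiefly PSMB8-AS1.

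Members with the response element in the promoter were set beside those without it. With miR-1 the median log2 ratio was -0.05 over 17 tested members with the match and -0.04 over 13 without, and with miR-122 it was 0.01 over 17 and 0.00 over 14. With miR-124 it was 0.15 over 17 and -0.08 over 13, and 4 of the 17 and 0 of the 13 were called higher (MX1, ISG15, IFI27, and IFI44L), where 4.99% of all genes were, or 14.4% of those with 20 to 99 reads, the range of all 4 but ISG15. Another 2 of the 17, IFIT1 and IFIT5, and 1 of the 13, IFNAR1, were called lower in that library, so that members with the letters printed above lay on both sides.

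Base composition moved with the ratios over all genes. GC content was that of the 3′ UTR, or of all annotated exons for genes without an annotated 3′ UTR. Across genes tested, Pearson's r between the log2 ratio and this GC content was 0.116 for miR-1 (17047 genes), 0.184 for miR-122 (16486 genes), and 0.396 for miR-124 (16596 genes), as a description of genes that share their libraries. With miR-124 the median log2 ratio was -0.22 in the third of genes lowest in GC and 0.17 in the highest. The UTR of IFIT5 held 33.6% GC, that of IFNAR1 41.6%, that of ISG15 50.8%, and that of MX1 53.6%. Relative to the 200 genes nearest in GC content, the log2 ratios with miR-124 were -0.38 for IFIT5 and -0.53 for IFNAR1, both then short of the fold, and 0.64 for ISG15 and 1.01 for MX1, still past it. ADAR with miR-1 was at -0.94 on this scale.

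Letters complementary to the miRNA seeds were searched per gene in its longest 3′ UTR in GENCODE release 44, for miR-1 as ACATTCC and for miR-122 as ACACTCC. That UTR was taken over all transcripts with a coding sequence and can be spliced, so that a site need not lie in the last exon. The JAK1 site below, for example, lies far from the end of the gene at chr1:64833223. No search was made for miR-124, whose sequence was not used here. The miR-1 letters occurred in 9 of 36 tested members (25%) and in 15.7% of 13313 genes, and the miR-122 letters in 4 of 37 (10.8%) and in 10.9% of 13086. Sites are shown for members described above, in capitals, ending with an A in capitals where the match has 8 letters. They lie at chr1:154582096-154582118 (ADAR, minus strand), chr1:64874602-64874624 (JAK1, minus), and chr17:56890517-56890539 (TRIM25, minus) for miR-1, and at chr10:89405572-89405594 (IFIT1, plus) and chr12:112970142-112970164 (OAS3, plus) for miR-122.
ADAR, miR-1: gtgacttaacaatatACATTCCt
JAK1, miR-1: cttagtcacttccacACATTCCA
TRIM25, miR-1: tcatggggaacaggaACATTCCt
IFIT1, miR-122: ggtattgatgacgctACACTCCt
OAS3, miR-122: gctctcccagctcacACACTCCc
The ADAR letters begin at base 5987 of a UTR of 6395 bases. The other tested members with miR-1 letters were DHX58, TLR3, IFNAR2, IRF1, BST2, and IFI44L, and those with miR-122 letters were TLR3 and ADAR. With miR-1 the median log2 ratio was -0.10 over members with the letters and 0.03 over those without, beside -0.21 and -0.03 over all genes. For miR-122 it was -0.37 over the 4 members with and 0.13 over those without, beside -0.11 and -0.01 over all genes. Members with miR-1 letters were not all low: in that library the log2 ratio was 0.27 for BST2, 0.26 for DHX58, and 0.02 for IRF1.

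Further genes of the pathway were counted by list. Of 48 other interferon-stimulated genes, 32 were tested with miR-1 (1 higher, 2 lower), 34 with miR-122 (1 higher, 1 lower), and 33 with miR-124 (1 higher, 3 lower), where 4.22% and 9.03%, 4.40% and 5.83%, and 4.99% and 6.39% of all genes were higher and lower. Their median log2 ratios were -0.13, -0.01, and -0.07. DTX3L, a ubiquitin ligase, had a ratio of 0.571 (0.469 to 0.695) with miR-1. EPSTI1 had a ratio of 0.461 (0.260 to 0.802) with miR-1 and 0.293 (0.129 to 0.604) with miR-124. SOCS1, the inhibitor of JAK signalling, had a ratio of 2.43 (1.32 to 4.67) with miR-124, from 16 and 38 reads. NLRC5, a regulator of antigen presentation genes, was at 1.52 (1.05 to 2.23) with miR-1, and SAMD9 at 0.661 (0.481 to 0.903) with miR-124. GBP1, a GTPase, had 4, 12, 16, and 5 reads and passed the filter only through the miR-122 library in which it was high.

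Of 31 other genes of RNA sensing and signalling, 27 were tested with miR-1 (1 higher, 0 lower), 26 with miR-122 (1 higher, 2 lower), and 27 with miR-124 (1 higher, 1 lower), to be read beside the same shares of all genes. Those past the fold with an interval that leaves out 1 were all in the miR-122 library. RNF125, a ubiquitin ligase for RIG-I, had a ratio of 0.583 (0.394 to 0.852), IKBKG, the NEMO subunit of the IκB kinase, 0.553 (0.394 to 0.768), and IL10RB, a receptor chain of λ interferon, 1.58 (1.10 to 2.27). Of 14 double-stranded RNA binding proteins, all were tested in each comparison. With miR-1, miR-122, and miR-124, 1, 1, and 0 were called lower (9.03%, 5.83%, and 6.39% of all genes). None was called higher (4.22%, 4.40%, and 4.99%). DICER1 was the gene called with miR-1, at 0.571 (0.497 to 0.657), and with miR-122, at 0.649 (0.556 to 0.758). Both ratios share the control library.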

How the data were processed

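RNA of 4 libraries of 293T cells was sequenced by the authors, who trimmed the reads, called bases with CASAVA 1.8, mapped reads to GRCh38 with HISAT2 2.0.0, and deposited FPKM values per gene. The counting program and annotation are not given in the sources used here. Reads were recovered from the FPKM values as whole multiples of the value of 1 read, for 99.8% of 32358 genes above 0. The length behind each value includes introns, and the reads of some genes can be off by a whole factor (IFITM2 by 2). Such a factor changes intervals, read filters and ranges, exon RPKM, and RPM. It does not change the ratio of a gene above 0 in both libraries. Totals were 6624306, 9452232, 5887055, and 6465436 reads for control RNA, miR-1, miR-122, and miR-124.

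Genes above 0.004 FPKM in both libraries, or at 0 in 1 of them, with at least 20 reads in both together were compared without a pseudocount, and 0 reads were set to 3. No test between conditions was possible. Alternatives were a pseudocount of 1, other read filters, another reference, centring, and a GC adjustment; the range of 20 to 99 reads was added after seeing the data. Members and lists were chosen with earlier results of these data known. Some genes of the further lists are counted and not reported by name here. All members are named, with full values for those past 1.5-fold with an interval that leaves out 1 and for the main sensors, factors, and effectors. The steps were tested on simulated data, and intervals held the true ratio in 95.6% of genes with miR-1. Those reads were drawn with counting error only, as the interval assumes. The share thus checks the calculation and says nothing of differences between cultures. The software was Python 3.11.15 with matplotlib 3.10.9, pandas 2.3.3, scipy 1.17.1, and numpy 2.4.6.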

Additional observations from a re-analysis of the deposited data

How the results depend on the processing

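With a pseudocount of 1, miR-1 had 1 member called lower (1.13% of all genes). With that pseudocount, miR-122 had 0 higher and 0 lower (0.754% and 0.784%), as did miR-124 (1.02% and 0.659%). This scale compresses genes below 1 FPKM. With no filter on reads, miR-1 had 2 higher and 4 lower (8.37% and 13.6% of all genes), miR-122 had 3 and 2 (10.1% and 11.5%), and miR-124 had 8 and 5 (10.7% and 11.7%). With at least 100 reads, miR-122 had 1 higher and 0 lower (1.11% and 2.23% of all genes), and miR-124 had 1 higher (1.82%). Against the mean of the other 2 mimics, miR-1 had 1 higher (3.6% of all genes). On this reference miR-122 had 1 higher and 4 lower (4.55% and 4.87%), and miR-124 had 1 lower (4.91%). The cause was not tested. IFIT2 (ratio 2.72), MX1 (1.77), and IFI27 (1.64) stayed past the fold with miR-124, where 4.8% of all genes were called higher. Neither IKBKE (ratio 1.33) nor IFI44L (1.46) with miR-122 was past the fold on that reference, nor were DHX58 (1.46), ISG15 (1.24), and IFI44L (1.15) with miR-124. The members called lower with miR-124 against the control also fell short of it, namely IFNAR1 (0.712), IFIT1 (0.863), and IFIT5 (0.743). The member called lower with miR-124 on that reference was thus another. Centring on the median gave miR-1 1 higher (5.11% of all genes). Against the 200 genes nearest in GC content, miR-1 had 1 higher (4.99% of all genes), miR-122 had 0 lower (5.17%), and miR-124 had 1 lower (4.56%). With only 20 to 99 reads, chosen after seeing the data, miR-1 had 0 lower (21.3% of all such genes) and a median log2 ratio of 0.13. In that range miR-122 had 1 higher (14.2%), and miR-124 had 1 lower (16.6%) and a median of 0.28. The other medians stayed within 0.10 of the reported ones. The direction of IFIT1 with miR-1 reversed against the other mimics, to a log2 ratio of 0.026; 34 other ratios moved beyond their counting interval under that reference, 8 under the pseudocount, and 1 (TYK2 with miR-124) under the GC adjustment.

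ADAR was called lower with miR-1 under each alternative that keeps genes of its depth. MX1 and IFI27 were called higher with miR-124 under all alternatives except the pseudocount and the minimum of 100 reads. So was IFIT2, whose call follows from the filter. Alternatives that change only the read filter leave a ratio as it was, and the intervals of IFI27 and IFIT2 included 1. Of the 45 members, 7 had too few reads for a test in any comparison, and intervals cover counting error only. No paired analysis was possible because the design has 1 library per condition, which also leaves no replicate to omit.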

Other observations

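Genes that NF-kB drives, a second arm downstream of RNA sensors, gave different counts in the 3 libraries, which share the control. Of 20 such genes, 13 were tested with miR-1 and 5 were called lower, where 9.03% of all genes were, and 21.3% of those with 20 to 99 reads, the range of all 5 but TNFAIP3. TNFAIP3, the ubiquitin-editing inhibitor of NF-kB, had a ratio of 0.649 (0.489 to 0.860), the adhesion molecule ICAM1 0.607 (0.385 to 0.954), the chemokine CXCL8 0.462 (0.279 to 0.755), and the chemokine CCL20 0.371 (0.146 to 0.880), the last from 17 and 9 reads. CXCL2, the remaining gene called lower, had an interval that included 1. None of the 13 was called higher.

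With miR-122, 1 of 13 was called lower (5.83% of all genes), ICAM1 at 0.475 (0.262 to 0.829), and 0 higher (4.40%). With miR-124, 15 were tested, 4 were called higher (4.99% of all genes) and 1 lower (6.39%). Of genes with 20 to 99 reads, the range of all 4 but TNFAIP2, 14.4% were called higher. Of the 4, TNFAIP2 had a ratio of 1.52 (1.23 to 1.88) from 150 and 222 reads, while CXCL1, CXCL3, and CCL2 had at most 26 reads in a library and intervals that included 1. CXCL1 and CXCL3 passed the read filter only through the miR-124 library in which they were high. Their calls follow from the filter, and without them only TNFAIP2 and CCL2 were called higher. BIRC3, an inhibitor of apoptosis, was the gene called lower, at 0.623 (0.385 to 0.992).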
